A study of Drosophila melanogaster with 24 samples.

Results

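The data described here are the H3K27me3 profiles of heads of LKRSDH MB01942 mutant males at 40 days of age, set against those of the same line at 3 days of age. LKRSDH encodes the bifunctional enzyme that opens lysine breakdown, with a lysine ketoglutarate reductase and a saccharopine dehydrogenase activity, and MB01942 is a transposon insertion with a GFP trap in that gene, in a line backcrossed to w1118. Both ages carried the same insertion, so the comparison is one of age within 1 genotype. Each age had 2 biological replicates, and these 4 peak lists were among 16 deposited lists of the 24 samples of the series, which also hold w1118 controls of both ages, H3R17me2 profiles and inputs. Each sample held the heads of 25 males kept at 25 °C on a cycle of 12 h light and 12 h dark and collected 8 h after lights on. For each of 13945 protein-coding genes, the share of the gene body under an H3K27me3 peak was computed in each list. A gene was counted as gained where both 40-day-old lists lay at least 50 percentage points above both 3-day-old lists, and as lost in the reverse case. By this rule 310 genes were gained and 5 were lost. These shares chose the genes, so their levels in the same 4 lists are given as a description, with no test. A longer stretch covered in both lists of one age and neither list of the other was counted as a domain if it reached 5 kb, which gave 41 gained and 0 lost domains.

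H3K27me3 is placed by the methyltransferase E(z) of Polycomb repressive complex 2, is read by the chromodomain protein Pc of Polycomb repressive complex 1, and marks genes that are kept silent through cell divisions. In Drosophila the best known targets are the Hox complexes and other developmental regulators, and genes of other tissues or stages are also found in broad domains of the mark. A whole head mixes photoreceptors, neurons, glia, fat body, muscle, cuticle-forming cells and sensory organs, so that a larger share of cells with the mark and more mark in each cell cannot be told apart in these profiles.

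The lists were first checked on genes whose state in the head is known. The Hox genes Ubx, abd-A, Abd-B and Antp, which pattern the trunk, were covered over 99.8 to 100% of their bodies in all 4 lists. The neuronal RNA-binding gene elav, the synaptic vesicle gene nSyb and the major rhodopsin gene ninaE, all in use in heads, had 0% in all 4. These were 3 of 9 head markers, and the others did not share this state. The photoreceptor gene Arr2 had 100% in all 4, and ninaC had 70.4 and 86.1% at 40 days and 84.0 and 87.8% at 3 days. The markers brp, Syt1, repo and trp were covered in part. The gene elav lies on the X, where 85.0% of genes had 0% in all 4. LKRSDH itself and Art4, which encodes the arginine methyltransferase studied for H3R17me2, also had 0% in all 4, so these lists do not check the insertion. The lists give no read counts, so the number of reads behind each value cannot be taken from them. All p-values given below measure only the spread between these samples.

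Peaks covered more of the genome in both 40-day-old lists than in both 3-day-old lists. The covered length was 44.6 and 44.9 Mb in 40-day-old mutants, against 30.7 and 35.9 Mb in 3-day-old mutants. The means were 44.8 ± 0.256 Mb and 33.3 ± 3.71 Mb (SD, n = 2 each), a difference of 11.5 Mb and a ratio of 1.34, and the ages did not overlap. An exact two-sided permutation test gave p = 0.333, the smallest value that 2 samples against 2 allow, so that no comparison of ages within this genotype could pass a threshold of 0.05. The number of peaks was 5730 and 4718 in 40-day-old mutants and 4423 and 6295 in 3-day-old mutants, and these ranges overlapped. The median peak was 2864 and 3174 bp long in 40-day-old mutants, against 2306 and 2252 bp in 3-day-old mutants. Peaks of at least 20 kb numbered 510 and 561 in 40-day-old mutants, against 345 and 333 in 3-day-old mutants, and covered 23.1 and 27 Mb, against 16.4 and 15.5 Mb. The ages thus did not overlap in the length of their peaks and overlapped in the number.

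The difference depended on which peaks were kept. With only peaks at a q-value under 0.05, the covered length was 17.3 and 37.0 Mb in 40-day-old mutants and 21.8 and 18.6 Mb in 3-day-old mutants, so the ages overlapped. Only 623 peaks of the first and 1967 of the second 40-day-old list passed this limit, against 1306 and 1056 in the 3-day-old lists. The 2 replicates at 40 days were therefore alike in total covered length and far apart in the length covered by the stronger peaks. The part of sequencing depth and of enrichment in this difference was not tested.

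**Figure D1:**
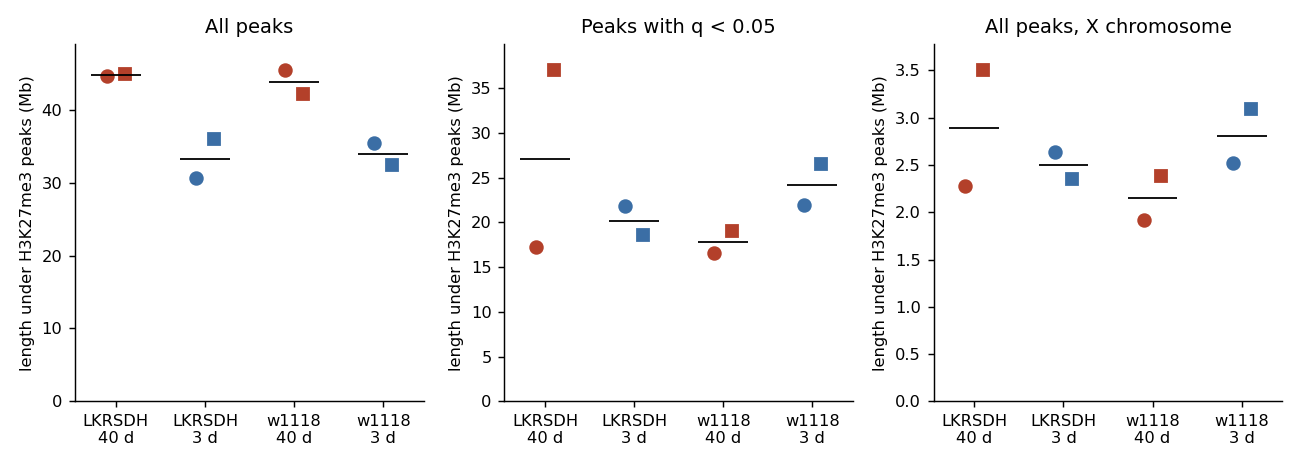
Length of the genome under H3K27me3 peaks (Mb) in each list, for all peaks and for peaks with a q-value under 0.05 in LKRSDH MB01942 mutants and w1118 controls at 40 and 3 days, with a panel for all peaks on the X, a point for each list and a line for each mean. For all peaks both 40-day-old mutant lists (44.6 and 44.9 Mb) lie above both 3-day-old lists (30.7 and 35.9 Mb), and for the stronger peaks the ages overlap.

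The difference was seen on the autosomes and not on the X. Coverage of 2L was 44.0 and 43.8% in 40-day-old mutants, against 29.4 and 34.8% in 3-day-old mutants. On 3R the shares were 41.8 and 41.2% at 40 days, against 28.3 and 33.3% at 3 days, and on 3L they were 34.1 and 32.2%, against 20.4 and 25.9%. On the small chromosome 4 the 40-day-old lists covered 21.8 and 22.3%, against 18.5 and 19.2% at 3 days. The X held 2.27 and 3.5 Mb of peaks in 40-day-old mutants and 2.64 and 2.35 Mb in 3-day-old mutants, and there the ages overlapped. Peaks were scarce on the X of these males, where 85.0% of genes had 0% in all 4 lists. On the large autosome arms 55.4 to 58.3% did so, and on chromosome 4 83.8%. Mutant H3R17me2 peaks also covered only 0 to 0.674% of the X. The part of peak detection in the result on the X was not tested.

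Base by base, 25.4 Mb was covered in all 4 lists and 80.7 Mb of the 6 chromosomes in none. The length covered in both 40-day-old lists and neither 3-day-old list was 5.61 Mb, which is 4.19% of the 6 chromosomes. The length covered in both 3-day-old lists and neither 40-day-old list was 0.215 Mb. A further 7.38 Mb lay in both 40-day-old lists and 1 of the 3-day-old lists, against 1.35 Mb in 1 of the 40-day-old lists and both 3-day-old lists. The gained length was made of 5161 runs with a median of 795 bp, and the lost length of 501 runs with a median of 194 bp. Most of the gained runs were thus short, and 804 of the 5161 reached 2 kb.

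Much of the gained length lay in regions that held some of the mark at 3 days. Of it, 54.3% lay in regions of the 40-day-old lists that also held bases covered in both 3-day-old lists, 25.4% in regions that met 3-day-old peaks in 1 list at a time, and 20.3% in 948 regions with no 3-day-old peak at all. The median region of the last kind was 904 bp long. By distance, 40.6% of the gained length lay less than 1 kb from a base covered in all 4 lists without touching one, 4 runs touched one, and 21.9% of the length was at least 10 kb away. A run can touch such a base only where both 3-day-old peaks have their edge at the same base, so few could by definition. Gained length was therefore found both near shared domains and apart from them.

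**Figure D2:**
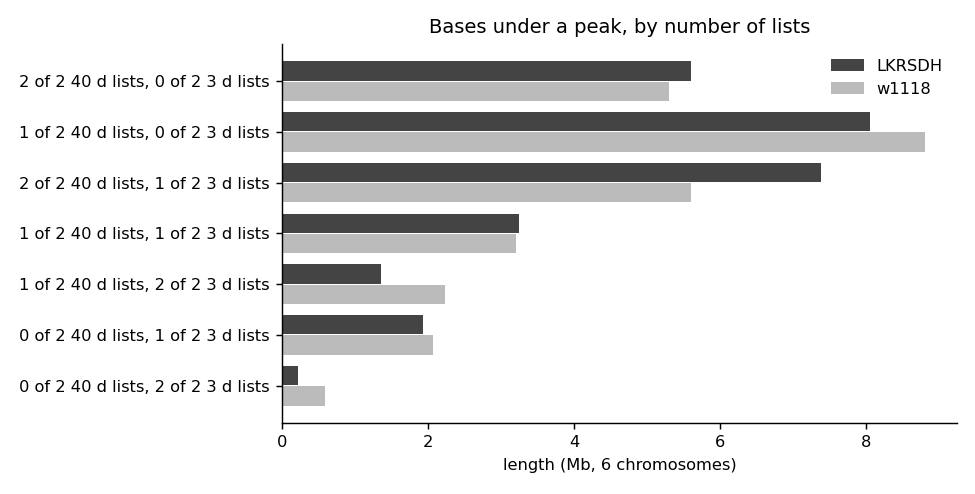
Length of the genome (Mb) by the number of 40-day-old and 3-day-old mutant lists that cover it, in dark bars for mutants and light bars for w1118, without the bases in all 4 lists or in none. In mutants 5.61 Mb is covered in both 40-day-old lists and neither 3-day-old list, against 0.215 Mb in the opposite class.

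Over the bases covered in all 4 lists, the deposited fold enrichment did not separate the ages. Its mean over bases was 1.80 and 2.12 in 40-day-old mutants and 2.25 and 1.91 in 3-day-old mutants, a difference of -0.119 (exact two-sided permutation p = 0.667, n = 2 each). Gained bases had a lower mean fold enrichment, of 1.47 and 1.48 in the 40-day-old lists. Only 7.97% of the gained bases in the first 40-day-old list and 59.3% in the second were under a peak with a q-value under 0.05. Of the bases covered in all 4 lists, 61.1 and 97.2% in 40-day-old mutants and 78.5 and 68.4% in 3-day-old mutants were under such a peak. The gained bases thus lay mostly under peaks past this limit in the second 40-day-old list and mostly under weaker peaks in the first.

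Of the 13945 protein-coding genes, 310 were gained (2.22%) and 5 were lost (0.0359%). Without the minimum of 50 percentage points, both 40-day-old lists lay above both 3-day-old lists for 1758 genes (12.6%) and below them for 82 genes (0.588%). The same rule over 26773 windows of 5 kb gave 539 gained windows (2.01%) and 2 lost ones (0.00747%). At the threshold, CG6675 lay just inside with a gap of 50.1 percentage points and CG15125 just outside with 49.9, and 65 genes lay between 45 and 50 against 36 between 50 and 55. Among lost genes the smallest gap was 59.7, for CG12546, and the nearest gene outside was CG9733 at 47.9. Both counts thus depend on where the limit is set: at 25 percentage points 709 genes were gained and 13 lost, and at 80 percentage points 140 and 0.

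The balance of gained and lost genes depended strongly on the peaks used. With only peaks at a q-value under 0.05, 71 genes were gained and 8 lost, and 18 of the 71 were among the 310. When each list was cut to its strongest peaks until all covered the 30.7 Mb of the smallest list, 111 genes were gained, 83 of them among the 310, and 92 were lost. That cut kept 1837 and 1185 peaks of the 40-day-old lists, against 4423 and 3606 of the 3-day-old lists. At equal covered length the gained and lost genes were about as many. The cut itself favours such a balance, since gains in length must then be offset by losses. It therefore cannot show whether gained genes exceed lost ones. The excess of gained genes was seen with all peaks and with only peaks at a q-value under 0.05, where the covered lengths of the ages overlapped. The part of covered length in it was not tested. Without 40 d replicate 1 the counts were 566 gained and 20 lost, without 40 d replicate 2 they were 607 and 45, without 3 d replicate 1 they were 443 and 78, and without 3 d replicate 2 they were 816 and 13. A rule over 3 lists asks for less than one over 4, so these counts are higher by construction.

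**Figure D3:**
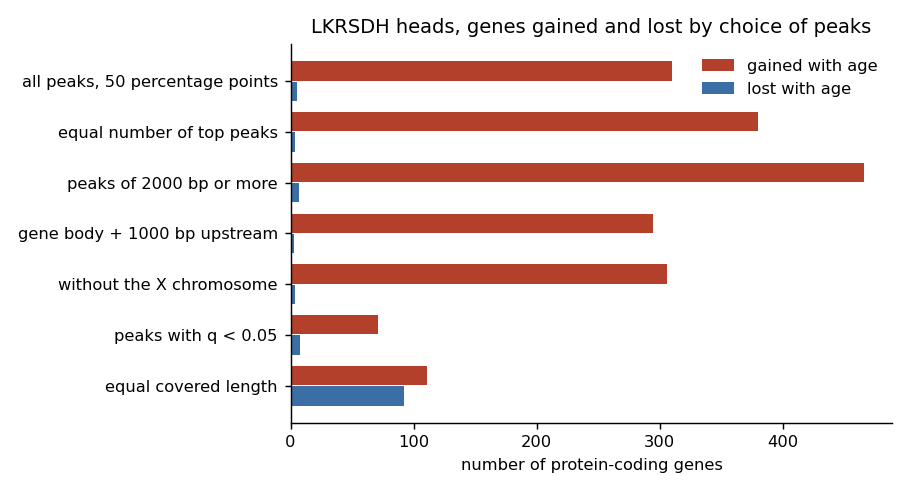
Number of protein-coding genes gained and lost with age in LKRSDH MB01942 mutants under each choice of peaks. With all peaks 310 genes are gained and 5 lost, and at equal covered length 111 are gained and 92 lost. Equal covered length by itself offsets gains in length by losses.

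Most gained genes had full or nearly full cover at 40 days and little or none at 3 days. Their mean coverage was 92.3 and 92.6% in 40-day-old mutants, against 4.78 and 8.71% in 3-day-old mutants, values that the rule itself fixed. Of the 310 genes, 194 had 0% in both 3-day-old lists, and 102 had 100% in both 40-day-old lists and 0% in both 3-day-old lists. They were short, with a median of 1168.5 bp against 2166 bp over all genes, and 74.8% were under 2 kb against 46.7% of all genes. A short gene can be covered whole by 1 peak, so a limit set on the share of the gene body reaches it more easily than a long gene. Among the gained genes 98 were on 3R, 73 on 3L, 61 on 2L, 4 on the X and 0 on chromosome 4, with the other 74 on the right arm of chromosome II.

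Many gained genes stood alone. With neighbours joined they fell into 253 groups, of which 210 held 1 gene and 43 held at least 2, with 100 genes in all. Few of them held repeated sequence: 3 of the 310 (0.968%) had at least 50% of their body in stretches of 31 bases that occur more than once, against 2.89% of all genes.

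The promoters of 3 gained and 3 lost genes are shown because they differ in whether the mark reached the start of the gene. They are the first of each kind by gap, with ties ordered by gene length and genes on the right arm of chromosome II passed over. They run from 250 bases before to 50 bases after the annotated start, 5′ to 3′ on the strand of the gene, read from the RefSeq sequence of the dm6 build. Capitals mark GAGAG or its complement CTCTC, bound by the GAGA factor, and GCCAT or its complement ATGGC, the core of the site of the Polycomb recruiter Pho, with overlapping GAGAG matches run together. Or69a, an odorant receptor gene, has its promoter at chr3L:12967684-12967983 on the minus strand. The promoter of CG13786 lies at chr2L:7252933-7253232 on the minus strand and that of CG32170 at chr3L:16877059-16877358 on the plus strand. Of the lost genes, CG32726 has its promoter at chrX:7425694-7425993 on the minus strand, CG14452 at chr3L:22695703-22696002 on the plus strand and CG12546 at chr3L:22693763-22694062 on the minus strand.
Or69a: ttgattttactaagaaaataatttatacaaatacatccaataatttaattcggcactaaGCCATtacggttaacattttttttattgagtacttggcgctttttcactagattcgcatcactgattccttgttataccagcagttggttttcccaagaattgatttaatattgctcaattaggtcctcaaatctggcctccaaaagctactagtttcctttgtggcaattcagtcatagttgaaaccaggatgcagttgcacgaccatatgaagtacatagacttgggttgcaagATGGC
CG13786: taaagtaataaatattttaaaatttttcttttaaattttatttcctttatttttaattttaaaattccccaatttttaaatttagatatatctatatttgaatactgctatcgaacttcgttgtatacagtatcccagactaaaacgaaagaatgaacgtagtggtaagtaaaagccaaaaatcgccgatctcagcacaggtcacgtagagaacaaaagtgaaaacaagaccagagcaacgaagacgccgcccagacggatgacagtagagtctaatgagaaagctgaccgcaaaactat
CG32170: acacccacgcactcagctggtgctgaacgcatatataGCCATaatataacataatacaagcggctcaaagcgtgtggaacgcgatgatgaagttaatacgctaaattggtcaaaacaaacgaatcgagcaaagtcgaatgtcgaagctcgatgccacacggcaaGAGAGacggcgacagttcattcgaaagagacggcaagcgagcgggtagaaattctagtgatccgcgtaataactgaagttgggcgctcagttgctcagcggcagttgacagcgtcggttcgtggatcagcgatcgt
CG32726: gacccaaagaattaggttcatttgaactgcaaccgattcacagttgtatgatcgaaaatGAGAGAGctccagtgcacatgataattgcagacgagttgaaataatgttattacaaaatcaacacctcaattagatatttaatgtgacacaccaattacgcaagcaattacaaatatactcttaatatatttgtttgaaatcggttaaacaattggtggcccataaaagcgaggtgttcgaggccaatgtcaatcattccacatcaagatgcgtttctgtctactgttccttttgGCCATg
CG14452: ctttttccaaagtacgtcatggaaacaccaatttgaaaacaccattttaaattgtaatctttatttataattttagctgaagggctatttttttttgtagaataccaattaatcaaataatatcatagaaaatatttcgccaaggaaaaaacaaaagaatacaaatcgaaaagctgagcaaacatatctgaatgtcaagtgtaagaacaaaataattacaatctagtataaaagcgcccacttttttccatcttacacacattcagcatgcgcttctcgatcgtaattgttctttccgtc
CG12546: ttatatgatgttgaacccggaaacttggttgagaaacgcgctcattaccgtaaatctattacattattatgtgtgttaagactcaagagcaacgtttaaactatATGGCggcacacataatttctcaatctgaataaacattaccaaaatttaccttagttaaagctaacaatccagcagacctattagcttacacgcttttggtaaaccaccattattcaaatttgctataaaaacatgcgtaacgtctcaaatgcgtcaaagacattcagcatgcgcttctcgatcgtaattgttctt

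The gained promoters were covered along with their genes. Peaks covered 100 and 100% of the Or69a and CG13786 promoters in 40-day-old mutants, against 0 and 0% in 3-day-old mutants, and 100 and 29% of the CG32170 promoter, against 0 and 0%. The lost genes differed from this, since the promoters of CG14452 and CG12546 were covered whole in all 4 lists and that of CG32726 in none. Over all 310 gained genes, 80 promoters (25.8%) held GAGAG or CTCTC, against 29.7% of all 13945 promoters of the same length, and 152 (49.0%) held GCCAT or ATGGC, against 41.2% of all. Of the 5 lost genes, 1 held the first motif and 2 held the second. These matches are letters in a window and were not tested against binding.

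The 102 genes with 100% of the body covered in both 40-day-old lists and 0% in both 3-day-old lists share the largest possible gap, and the 12 longest of them are named here. They included the odorant receptor genes Or69a and Or30a, the ionotropic receptor gene Ir94f, and Qsox4, a gene of the quiescin sulfhydryl oxidase family. The others were CG30043, CG13786, CG10339, CG32170, CG3285, CG15531 and the pair CG42690 and CG43195, which the annotation places on the same 1615 bp span and which therefore count as 1 stretch of chromatin. Or69a lies at chr3L:12964360-12967733, Or30a at chr2L:9111814-9113285, Ir94f at chr3R:23481865-23483541 and Qsox4 at chr3R:23702761-23704542. In w1118 these genes did not follow 1 pattern. CG10339, which had 83.3 and 100% in 40-day-old w1118, had 0 and 0% in 3-day-old w1118. Ir94f, in contrast, had 100 and 100% in 40-day-old w1118 and 100 and 100% in 3-day-old w1118, so that the 3-day-old mutant lists were the ones that stood apart for this gene.

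Chemosensory receptor genes were among the gene families with many gained members. Odorant receptors are the ligand-binding channels of olfactory neurons, and each neuron uses 1 or a few of them while the rest stay silent. Of 60 odorant receptor genes 9 were gained (15%, against 2.22% of all genes) and 0 lost, and 20 lay higher in both 40-day-old lists by any amount (33.3%, against 12.6% of all genes). Mean coverage over the family was 65.2 and 67.2% in 40-day-old mutants, against 38.3 and 48.7% in 3-day-old mutants, and over all genes it was 24.7 and 24.9%, against 15.2 and 19.5%. The gained members were Or22b, Or24a, Or30a, Or35a, Or42a, Or47b, Or67c, Or69a and Or85d. Or47b, a receptor that promotes male courtship, had 100 and 100% at 40 days, against 0 and 9.42% at 3 days. Or42a, a receptor for fruit esters, had 69.9 and 55.3% at 40 days, against 0 and 0% at 3 days. Of the 60 genes 14 were covered over at least 90% in all 4 lists and 13 had 0% in all 4 of them. Over all genes 61.5% had 0% in all 4 and so could not be gained or lie higher. The shares of all genes are therefore a low base for this family.

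Gustatory and ionotropic receptors, which detect tastants and, for many ionotropic receptors, acids and amines, gave smaller shares. Of 60 gustatory receptor genes 7 were gained (11.7%), with a family mean of 43.3 and 43.1% in 40-day-old mutants, against 20.1 and 29.1% in 3-day-old mutants. Gr33a, a co-receptor for bitter compounds, had 100 and 94.6% at 40 days, against 15.3 and 0% at 3 days. Gr28b, a family locus linked to light and heat sensing, had 72.7 and 78.4%, against 0 and 18.8%. The sweet receptor genes Gr64d and Gr64e overlap each other and were gained together, with 66.9 and 95.0% for Gr64d at 40 days, against 0 and 0% at 3 days. The others were Gr22d, Gr22f and Gr59e. Of 60 ionotropic receptor genes 5 were gained (8.33%), namely Ir52b, Ir52d, Ir67c, Ir84a and Ir94f, with a family mean of 47.6 and 61.7% at 40 days, against 27.8 and 33.8% at 3 days. Ir84a, which detects food-derived aromatic acids and promotes male courtship, had 100 and 100%, against 0 and 26.4%. In all 3 receptor families both 40-day-old means lay above both 3-day-old means.

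Odorant binding proteins, which are secreted around sensory neurons, and cuticle proteins of the Cpr family, which bind chitin, gave similar shares. Of 49 odorant binding protein genes 5 were gained (10.2%): Obp22a, Obp50a, Obp56e, Obp56f and Obp56g. Obp56e and Obp56f are neighbours, and each had 100 and 100% at 40 days, against 0 and 0% at 3 days. The family mean was 56.1 and 64.9% in 40-day-old mutants, against 29.6 and 41.6% in 3-day-old mutants. Of 66 Cpr genes 10 were gained (15.2%, against 2.22% of all genes), and 23 lay higher in both 40-day-old lists by any amount (34.8%, against 12.6%). Their family mean was 56.3 and 59.9% at 40 days, against 19.3 and 35.9% at 3 days, and the median gene differed by 27.6 percentage points against 0 over all genes. Cpr49Ac had 91.0 and 89.3%, against 0 and 0%, and Cpr76Bb had 100 and 100%, against 0 and 0%. The other gained members were Cpr47Ea, Cpr47Ed, Cpr49Af, Cpr49Ag, Cpr65Av, Cpr65Ay, Cpr76Ba and Cpr97Ea, so several came from the same gene clusters and share their surroundings. Of the Cpr genes 13 had 0% in all 4 lists, against 61.5% of all genes, so the shares of all genes are a low base here too. The same holds for gustatory receptor, ionotropic receptor and odorant binding protein genes, of which 22, 12 and 15 had 0% in all 4. Pathway and family lists were chosen with earlier results of these data known, and their shares carry no test.

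**Figure D4:**
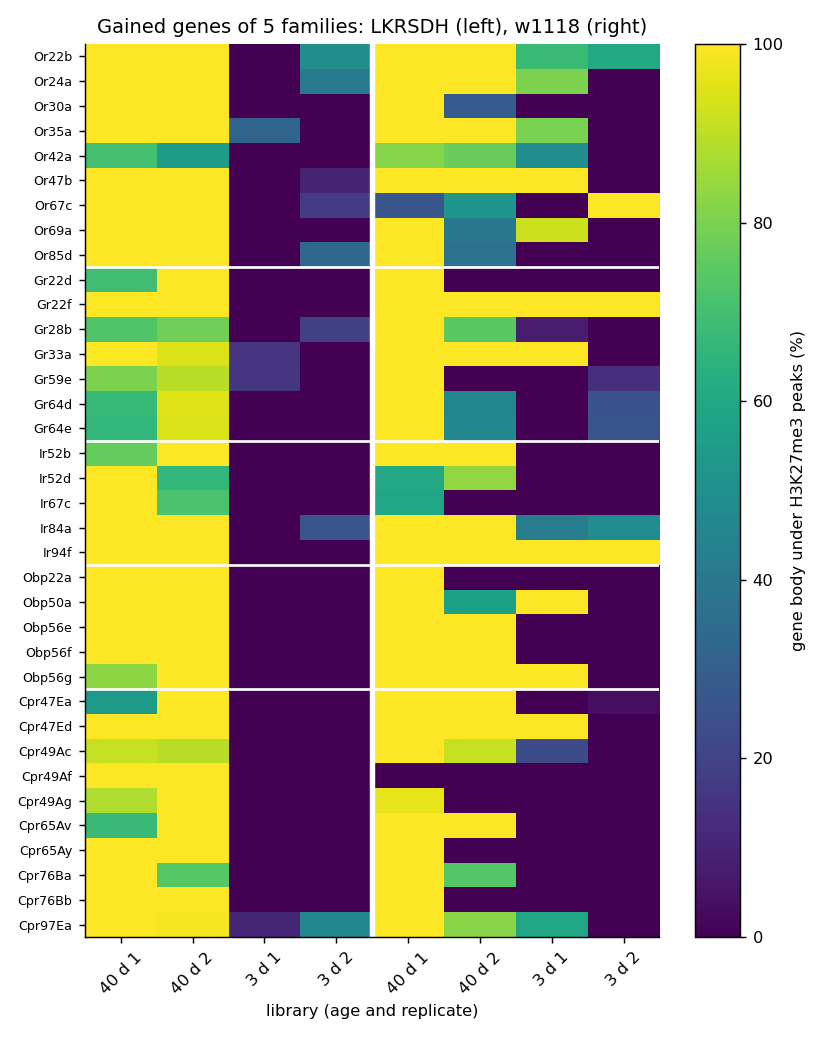
Share of the gene body under H3K27me3 peaks (%) for the mutant gained genes of the odorant, gustatory and ionotropic receptor, odorant binding protein and Cpr families, with a row for each gene, a column for each list, mutants left of w1118, and the share as colour. In mutants both 40-day-old columns lie at least 50 percentage points above both 3-day-old columns, as the rule requires, and in w1118 10 of the 36 genes do so.

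These family counts also changed with the peaks used. At equal covered length Or42a, Ir94f and Obp56g were the gained members that were also gained with all peaks. The odorant receptor genes Or33b and Or33c, the gustatory receptor gene Gr47a, the ionotropic receptor genes Ir56c and Ir68b, the cuticle genes Cpr47Ee and Cpr49Ab and the adhesion gene dpr20 were lost at that cut. Gained and lost receptors thus both occurred once the lists were made equally long, a cut that by itself offsets gains in length by losses. Of the 36 gained members of the 5 families, 10 were also gained in w1118, among them Gr28b, Ir84a, Ir52b, Ir52d, Obp56e and Obp56f. In w1118 the same families gained 3 odorant receptor, 11 gustatory receptor, 8 ionotropic receptor, 4 odorant binding protein and 12 Cpr genes.

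Neuropeptide, phototransduction and testis genes each had 1 or 2 gained members. Of 38 neuropeptide genes 2 were gained (5.26%, against 2.22% of all genes), AstCC and Capa, with a mean over the list of 51.3 and 48.9% in 40-day-old mutants, against 29.1 and 36% in 3-day-old mutants. Only 10 of the 38 had 0% in all 4 lists, against 61.5% of all genes. AstCC, which encodes an allatostatin, had 99.3 and 100%, against 0 and 0%. Capa, whose peptides act on fluid secretion, had 100 and 100%, against 0 and 0%, but in w1118 the values followed replicate number and not age, with 100 and 0% at 40 days and 100 and 0% at 3 days. Among the other neuropeptide genes, Dh44, a diuretic hormone gene, had 90.7 and 75.2% at 40 days, against 0 and 39.3% at 3 days, and Tk, the tachykinin gene, had 95.3 and 84.4%, against 57.6 and 46.8%. Of 13 phototransduction genes only Arr1, which encodes an arrestin that quenches rhodopsin, was gained (7.69%), with 98.0 and 100%, against 0 and 45.3%. In w1118 Arr1 had 60.5 and 0% at 40 days and 22.6 and 58.7% at 3 days, so the ages overlapped, as they did for Tk. For AstCC and Dh44 both 40-day-old w1118 lists lay above both 3-day-old ones. Of 7 rhodopsin genes 0 were gained, against 2.22% of all genes, and Rh7 had 84.4 and 75.4% at 40 days, against 22.3 and 40.3% at 3 days. bam, a germline differentiation gene, was the 1 gained gene of 18 testis genes (5.56%), with 88.0 and 88.6%, against 29.3 and 0%.

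The insulin-like peptide genes, which are studied in aging, showed no gained or lost member among 8. Over all genes 2.22% were gained and 0.0359% lost, so 0 of 8 does not set these genes apart. Ilp1 and Ilp4 had 100% in all 4 mutant lists, and Ilp6, Ilp7 and Ilp8 had 0% in all 4. Ilp2, a main product of the insulin-producing neurons, had 100 and 100% in 40-day-old mutants and 46.6 and 100% in 3-day-old mutants. Ilp3 had 100 and 100% at 40 days and 34.9 and 100% at 3 days. Ilp5 had 45.2 and 0% at 40 days and 0 and 66.3% at 3 days. For each of the last 3 genes the ages overlapped or met.

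Neural receptor and adhesion genes differed by smaller amounts. Of 42 neurotransmitter receptor genes 0 were gained, but 21 lay higher in both 40-day-old lists (50%) and 1 lower, with a median difference of 11.4 percentage points. Of 45 axon guidance and adhesion genes 0 were gained and 21 lay higher (46.7%), with a median difference of 9.04. Of 32 dpr and DIP genes, which encode partner adhesion molecules of synapses, 0 were gained and 12 lay higher (37.5%). Over all genes 2.22% were gained. Set against 12.6% of all genes, the shares that lay higher were larger. Only genes that hold some peak can lie higher, however, and 8577 of all genes had 0% in all 4 lists.

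**Figure D5:**
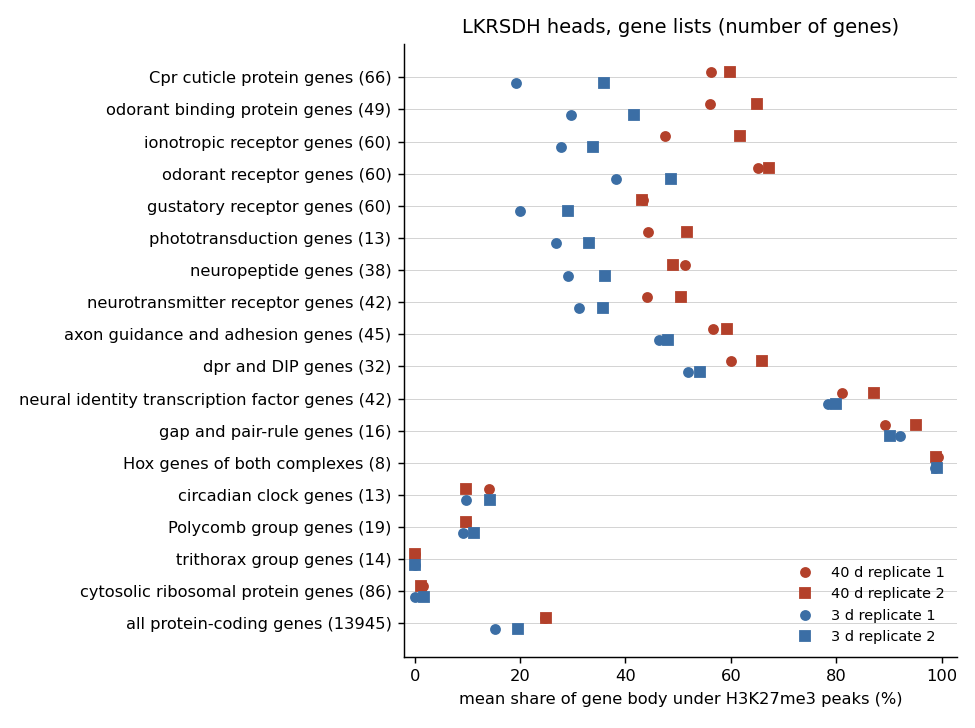
Mean share of the gene body under H3K27me3 peaks (%) for each gene list in the 40-day-old and the 3-day-old mutant lists, with 1 point for each list. Both 40-day-old points lie above both 3-day-old points for the chemosensory, Cpr, neuropeptide and neural gene lists and for all protein-coding genes, and the Hox and trithorax lists lie near 100 and at 0% at both ages.

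Classical Polycomb targets were at their ceiling at both ages. The 8 Hox genes averaged 99.2 and 98.9% in 40-day-old mutants, against 98.8 and 99.1% in 3-day-old mutants. The 6 NK homeobox cluster genes had 100% in all 4 lists, and each of the 8 retinal determination genes was covered over at least 90% in all 4. The 16 gap and pair-rule genes averaged 89.3 and 95.2% at 40 days and 92.1 and 90.2% at 3 days. In all, 1127 genes were covered over at least 90% in all 4 lists, and a measure of covered share cannot show a gain in them. At the other end, 14 trithorax group genes, which encode activators that oppose Polycomb silencing, had 0% in all 4 lists. The 86 cytosolic ribosomal protein genes averaged 1.63 and 1.16% at 40 days and 0 and 1.7% at 3 days. The 19 Polycomb group genes averaged 9.69 and 9.73% at 40 days and 9.2 and 11.3% at 3 days, with 16 at 0% in all 4. Housekeeping and stress genes were likewise nearly free of the mark, with 12 of 14 glycolysis genes and 14 of 15 heat shock protein genes at 0% in all 4. Segment polarity, Wnt, neural identity, insulin pathway, antimicrobial peptide and lysine breakdown lists also held 0 gained and 0 lost genes. Over all genes 2.22% were gained and 0.0359% lost, so counts of 0 in lists this short do not set them apart. Of 13 circadian clock genes 0 were gained or lost. Both 40-day-old lists lay below both 3-day-old lists for 2 of the 13, per and Pdp1, and for 0.588% of all genes. The gene per, which encodes the period protein, had 0 and 0% at 40 days and 26.1 and 9.93% at 3 days. Pdp1 had 5.19 and 5.71%, against 11.3 and 10.2%. In w1118 per was lost by the rule, with 0 and 0% at 40 days, against 62.3 and 82.0% at 3 days, so its difference was not particular to the mutant.

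Markers of cell types in the head and of other tissues were compared in the same way. Mhc, the muscle myosin heavy chain gene, had 67.0 and 75.9% in 40-day-old mutants, against 16.9 and 42.8% in 3-day-old mutants. The glial gene repo had 70.1 and 80.1% at 40 days and 78.2 and 78.9% at 3 days, and the photoreceptor channel gene trp had 57.5 and 98.6%, against 0 and 15.9%. In w1118 trp had 38.4 and 0% at 40 days and 55.3 and 9.81% at 3 days, so the ages overlapped. For Mhc both 40-day-old w1118 lists lay above both 3-day-old ones. The flight muscle actin gene Act88F had 67.9 and 0% at 40 days and 36.6 and 77.7% at 3 days, and the yolk protein gene Yp1 had 0 and 80.5%, against 0 and 0%. Of the 7 markers of other tissues (Mhc, Act88F, Yp1, Lsp2, can, topi and bam) 2 lay higher in both 40-day-old lists (28.6%) and 0 lower. Of the 9 head markers, which include repo and trp, 1 lay higher (11.1%) and 0 lower. Over all genes 12.6% lay higher and 0.588% lower, so the head markers were near that share. With so few markers the 2 groups are not shown to differ. The part of the makeup of the heads in the other results was not tested.

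The 41 gained domains of at least 5 kb held 239 kb. Of these 17 were on 3R, 13 on 2L, 7 on 3L, 1 on chromosome 4 and 0 on the X, with 3 on the right arm of chromosome II. No gene lay in 11 of them, 18 lay inside 1 gene and 5 held a whole gene. Peaks with a q-value under 0.05 reached 0 of the 41 domains in the first 40-day-old list and 20 in the second. The longest stretch of lost mark was 3585 bp, so the 2 directions differed in the length of their runs as well as in their sum.

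The longest gained domain, of 8694 bp, was at chr3L:20928940-20937633 inside fng, which encodes a glycosyltransferase that modifies Notch. The whole fng gene had 93.9 and 99.6% in 40-day-old mutants, against 16.3 and 27.9% in 3-day-old mutants. In w1118 the domain itself was covered over 100 and 100% at 40 days and 81.9 and 82.7% at 3 days, so most of it was already marked in young controls. The next, of 7416 bp, was at chr3R:19950973-19958388 inside Hs6st, a heparan sulfate sulfotransferase gene, which had 54.6 and 50.7% at 40 days, against 4.91 and 20.9% at 3 days. In w1118 this domain had 79.8 and 86.9% at 40 days, against 21.9 and 8.47% at 3 days. The 2 longest domains thus differed in the state of the young controls.

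The other 4 of the 6 longest domains were at chr3R:10685503-10692816, over part of Skel, at chr3R:25906401-25913694, over part of kumpel, at chr3L:4296246-4303444, inside dyl, and at chr3R:7235183-7242102, over parts of thw and CG14607. Skel, the Skeletor gene, had 95.1 and 78.1% of its body covered at 40 days, against 25.7 and 11.9% at 3 days. kumpel, which encodes a monocarboxylate transporter, had 88.4 and 91.3%, against 0 and 19.7%. dyl, or dusky-like, which encodes a zona pellucida domain protein of forming cuticle, had 97.3 and 94.4%, against 9.33 and 24.4%. In w1118 the dyl domain was covered over 100 and 100% at 40 days, against 21.7 and 0% at 3 days. Over all 41 domains, 36 lay higher in both 40-day-old w1118 lists than in both 3-day-old w1118 lists, where 11.8% of all genes did so. The share among other stretches of such length was not computed, so 36 of 41 has no like base.

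The 5 lost genes were CG13748, Amy-p, CG12546, CG14452 and CG32726. CG13748 had 0 and 0% of its body covered in 40-day-old mutants, against 61.8 and 99.4% in 3-day-old mutants. Amy-p, a gene for the digestive enzyme alpha-amylase, had 19.7 and 29.0%, against 100 and 100%. CG12546 had 26.2 and 40.3%, against 100 and 100%, and CG14452 had 30.8 and 29.6%, against 100 and 100%. The last of them, CG32726 at chrX:7425220-7425743, had 0 and 0%, against 77.5 and 71.8%. Amy-p was also lost in w1118, with 13.1 and 18.8% at 40 days, against 100 and 100% at 3 days.

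Repeated sequence was common among the lost genes. Stretches of 31 bases that occur more than once made up 63.9% of the Amy-p body, which has a near-identical neighbouring copy, 96.9% of CG12546 and 98.2% of CG14452, and 0% of CG13748 and CG32726. Among lost bases 16.0% were in such stretches, against 0.388% of gained bases, 0.252% of bases covered in all 4 lists and 12.6% of the 6 chromosomes. Reads from such stretches can come from either copy, so the values of Amy-p, CG12546 and CG14452 are uncertain. The part of read placement in them was not tested.

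The control line gave counts close to those of the mutant. In w1118, 362 genes were gained (2.6%) and 13 lost (0.0932%) between the same ages by the same rule. The gained genes of both genotypes shared 80 genes, which is 25.8% of the mutant list and 22.1% of the w1118 list, and 0 of the 310 mutant genes lay in the opposite direction by the same limit in w1118. Of the 310, 160 (51.6%) lay higher in both 40-day-old w1118 lists by any amount, against 11.8% of all genes. Their mean coverage in w1118 was 79.5 and 66.1% at 40 days, against 36.5 and 18.0% at 3 days. The genes gained in mutants were thus on average also higher at 40 days in controls, by less than in the lists that chose them.

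The age difference in covered length was not shown to differ between genotypes. It was 44.6 and 44.9 Mb, against 30.7 and 35.9 Mb, in mutants at 40 and 3 days, and 45.4 and 42.1 Mb, against 35.4 and 32.4 Mb, in w1118. The age difference was 11.5 Mb in mutants and 9.84 Mb in w1118, which differ by 1.61 Mb (exact permutation of genotype labels within age, p = 0.667, 36 arrangements, smallest possible p = 0.0556). Without 3 d replicate 1 of the mutants this difference turned to -1.01 Mb, and without 40 d replicate 2 of w1118 to -0.0182 Mb. For peaks with a q-value under 0.05 it was 13.4 Mb (exact p = 0.167), since w1118 then had 16.6 and 19.0 Mb at 40 days, against 21.9 and 26.5 Mb at 3 days. For the number of peaks it was -1558.5 (exact p = 0.278), and for the X it was 1.04 Mb (exact p = 0.222). By base, 1.27 Mb of the gained length was gained in both genotypes, which is 22.7% of the mutant and 24.0% of the w1118 gained length, while the w1118 gained length makes up 3.96% of the 6 chromosomes.

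H3R17me2, the arginine mark measured in the same genotype and ages, was set over the same genes. Its peaks covered 48.2 and 66.1% of the gained genes in 40-day-old mutants, against 38.7 and 45.4% in 3-day-old mutants, a difference of 15.1 percentage points (exact two-sided permutation p = 0.333, n = 2 each, the smallest possible). Over all genes the shares were 29.4 and 38.1% at 40 days and 24.0 and 40.3% at 3 days, a difference of 1.64. Over the 5 lost genes they were 23.0 and 0.516% at 40 days and 0 and 20.8% at 3 days, a difference of 1.33 (exact p = 0.667, n = 2 each). The 1127 genes covered by H3K27me3 over at least 90% in all 4 lists also had more H3R17me2 in both 40-day-old lists, with 51.2 and 67.0% at 40 days, against 46.8 and 50.5% at 3 days, a difference of 10.5 (exact p = 0.333, n = 2 each). The higher H3R17me2 cover was thus not seen in gained genes alone. H3R17me2 peaks with a q-value under 0.05 numbered only 18 and 5 at 40 days and 26 and 3 at 3 days, and with these peaks alone the difference over the 310 gained genes was 0.0.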

How the data were processed

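Chromatin of fly heads was immunoprecipitated for H3K27me3 or H3R17me2 and sequenced. The authors trimmed reads with Trim Galore 0.6.0, aligned them to dm6 with Bowtie2 2.5.1, removed duplicates with Picard, handled alignments with SAMtools 1.19 and called broad peaks against input with MACS2 2.2.7.1 in each library. The deposited lists give for each peak a fold enrichment, which is a ratio over the local background, and a −log10 p-value and −log10 q-value as the authors' peak caller wrote them. They hold no read counts, so no count, interval or detection limit could be given, and inputs enter only through the peak calls. Which input was used for which library is not given in the sources used here, and in the 3-day-old H3K27me3 lists of the mutants the parts of the peak names stand in another order than in the labels.

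Peaks were merged and set over protein-coding genes of the Ensembl annotation (release 115) on 2L, 2R, 3L, 3R, 4 and X, and over windows of 5 kb, with Python 3.11.15, NumPy 2.4.6, pandas 2.3.3 and matplotlib 3.10.9. Promoters were read from the RefSeq genome of the same build. The gap rule of 50 percentage points was tested on simulated lists. Groups of 2 lists were compared by exact permutation of samples. Named genes were the gained and lost genes with the largest gap (up to 12 each way), gained or lost members of the gene lists, genes of the 6 longest domains, LKRSDH, Art4 and Ilp1 to Ilp8. Other members of the lists, marker genes, CG6675, CG15125 and CG9733 were named after their values were seen. Members and lists were chosen with earlier results of these data known. Alternatives were a q-value under 0.05, equal numbers of peaks, equal covered length, peaks of at least 2000 bp, joined gaps up to 1000 bp, limits of 25 and 80 percentage points, 1000 bp added upstream, no X chromosome, a replicate block and leaving out each replicate.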

Additional observations from a re-analysis of the deposited data

How the results depend on the processing

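The 310 gained genes became 71 with only peaks at a q-value under 0.05, 111 at equal covered length, 466 with only peaks of at least 2000 bp, 709 at a limit of 25 and 140 at a limit of 80 percentage points, and 443 to 816 with one replicate left out. The 5 lost genes became 8, 92 (equal covered length), 13 (25 points), 0 (80 points), 3 with 1000 bp added upstream, of which 0 were among the 5, and 13 to 78 with one replicate left out. The gained length of 5.61 Mb became 1.02 Mb at a q-value under 0.05, 1.52 Mb at equal covered length and 8.05 to 10.5 Mb with one replicate left out. The lost length of 0.215 Mb became 0.101, 1.45 and 0.532 to 1.82 Mb under the same settings and 0.137 Mb with peaks of at least 2000 bp. With only peaks at a q-value under 0.05, 53 of 59 named genes moved by more than the spread between lists. At equal covered length 41 did so and another 10 turned: Arr1 (-22.6 percentage points), Or24a (-20.7), Skel (-18.8), fng (-17.4), Cpr97Ea (-14.7), bam (-14.6), Or67c (-8.87), thw (-8.24), Gr59e (-7.88) and dyl (-4.66). That setting fixes the covered length, so gains in length are offset by losses. It gave no value for the difference between genotypes or for the age difference in covered length. The age difference in covered length ranged between 8.83 and 14.1 Mb with one replicate left out. The difference between genotypes was 13.4 Mb at a q-value under 0.05 and 5.58 Mb with equal numbers of peaks, and ranged between -1.01 and 4.23 Mb with one replicate left out, with the sign turned without 3 d replicate 1 (-1.01) and without w1118 40 d replicate 2 (-0.0182). The fold enrichment difference ranged between -0.275 and 0.0506 with one replicate left out, with the sign turned without 3 d replicate 1 (0.0506) and without 40 d replicate 1 (0.0391). H3R17me2 over gained genes ranged between 6.17 and 24.0 points with one replicate left out and was 0.0 at a q-value under 0.05. Over lost genes it was 0.0 at that q-value, -6.48 with a limit of 25 points, without a value at 80 points, and between -9.89 and 12.5 with one replicate left out. The replicate numbers did not pair the lists, since the differences between replicates 1 and 2 at the 2 ages had a correlation of -0.00233 over 26773 windows. With the replicate block 348 genes were gained and 5 lost, and the covered length differed by 11.5 Mb. Joining gaps up to 1000 bp changed no value, not even the covered length, so it is no separate check. The cause of these changes was not tested, apart from rules over fewer lists, which ask for less. The lists hold no read counts, and peaks with a q-value over 0.05 held most gained bases in 40 d replicate 1.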

Other observations

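The gained genes included a compact group on 3L that was noticed after the values were seen. It spans 9.743 kb at chr3L:15652537-15662279 and holds Eig71Ed, Eig71Ef, Eig71Ei, Eig71Ej, Eig71Ek and CG43082, members or neighbours of an ecdysone-induced gene cluster used at metamorphosis. The body of each of these genes except Eig71Ef was covered over 100 and 100% in 40-day-old mutants, against 0 and 0% in 3-day-old mutants, and Eig71Ef had 100 and 95.9%, against 9.38 and 4.62%. All 6 may be read as 1 stretch of chromatin. In w1118, Eig71Ei, Eig71Ej, Eig71Ek and CG43082 had 100 and 100% at 40 days, against 0 and 0% at 3 days, while Eig71Ed had 100 and 100%, against 85 and 0%, and Eig71Ef had 100 and 100%, against 100 and 44.4%.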
